A study of Homo sapiens with 11 samples.

Results

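Knockdown of BCL11A together with MBNL1 was compared with knockdown of BCL11A alone in MDA-MB-231 cells. This line was grown from the pleural effusion of a metastatic breast cancer and is epithelial in origin. The comparison used 6 of the 11 libraries of the series and the 4511 of 8085 listed genes that have values in both the siB/siM and the siBCL11A block of the authors' table. The siBCL11A block lists only genes that differed from siNS in the authors' own test. The other blocks were taken to be listed in the same way, so the genes are a selected set. In siB/siM (3 libraries) the cells received SMARTpool siRNAs against BCL11A and against MBNL1, each at 50 nM. In siBCL11A (3 libraries) they received the BCL11A pool alone at 100 nM. For context, siMBNL1 (3 libraries) received the MBNL1 pool at 100 nM and siNS (2 libraries) non-targeting siRNA at 100 nM. In every group total RNA was taken at 48 h and sequenced with a stranded kit after depletion of ribosomal RNA. The siB/siM cells therefore differed from the siBCL11A cells both in the added MBNL1 pool and in the lower dose of the BCL11A pool, and these cannot be told apart. All groups are 1 cell line, and the labels do not say whether the libraries of a group came from separate cultures, so the p-values cover only how far these libraries spread, and that spread may be technical.

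BCL11A is a zinc finger transcription factor that recruits corepressor complexes such as NuRD, and it is known for silencing fetal globin genes in red cells and for its expression in triple-negative breast cancer. MBNL1 is an RNA-binding protein of the muscleblind family that binds YGCY motifs (Y is C or U) and sets the inclusion of alternative exons and the stability and localisation of transcripts. MBNL1 and its paralog MBNL2 bind overlapping targets, and both pre-mRNAs carry a regulated exon that controls nuclear localisation of the protein.

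The exons that carried the largest inclusion differences between siB/siM and siBCL11A, described further on, and the regulated exons of MBNL1 and MBNL2 are shown here because MBNL proteins act on such exons. Sequences are the transcript sense strand from GENCODE v29 (GRCh38), written as DNA in lower case, with each match to the YGCY motif (TGCT or CGCT, and likewise TGCC or CGCC; sense strand only, overlaps allowed) in capitals.
KIF13A, 39 bases, chr6:17789872-17789910, minus strand: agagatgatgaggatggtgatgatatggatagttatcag
MLLT4, 21 bases, chr6:167913403-167913423, plus strand: gaagtagaccaggttgaccag
ZDHHC7, 111 bases, chr16:84988763-84988873, minus strand: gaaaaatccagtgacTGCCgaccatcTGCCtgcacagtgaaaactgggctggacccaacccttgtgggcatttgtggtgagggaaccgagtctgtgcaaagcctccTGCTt
ITGA6, 130 bases, chr2:172501772-172501901, plus strand: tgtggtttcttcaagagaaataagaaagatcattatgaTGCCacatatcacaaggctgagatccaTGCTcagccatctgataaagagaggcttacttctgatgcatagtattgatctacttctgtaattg
MBNL1, 54 bases, chr3:152446704-152446757, plus strand: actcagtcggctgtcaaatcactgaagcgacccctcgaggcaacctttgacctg
MBNL2, 54 bases, chr13:97356796-97356849, plus strand: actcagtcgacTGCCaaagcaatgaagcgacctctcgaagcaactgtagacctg
These letters occurred 3 times in the ZDHHC7 exon, 2 times in the ITGA6 exon and 1 time in the MBNL2 exon. They occurred 0 times in the KIF13A, MLLT4 and MBNL1 exons. Among distinct internal exons of the same length in protein-coding transcripts, 76.66% held at least 1 such match at 111 bases, 83.08% at 130 bases, 45.09% at 54 bases, 32.17% at 39 bases and 14.67% at 21 bases. The flanking introns, where MBNL proteins also bind, were not searched. The MBNL1 and MBNL2 exons held the same base at 45 of 54 positions (83.3%).

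Levels are given as RPKM, reads scaled to transcript length and to the reads of the library, as the authors deposited them. Differences are siB/siM minus siBCL11A on log2(RPKM + 1), with the standard error from limma; this scale understates the change of genes with low levels. A gene was called at a Benjamini-Hochberg adjusted p under 0.05. The effective depth in mega (M) reads worked out from the RPKM steps of short RNAs was 34.9, 32.7 and 32.4 M reads in the siB/siM libraries and 26.8, 34.5 and 33.0 M reads in the siBCL11A libraries, where the value of library 2 could also be 25.9 M reads. Each value is the best fit within a fixed search range. In siBCL11A libraries 1 and 2 it rests on 8 short RNAs, of which 75% fitted, and is uncertain. Library 1 of both groups stood apart in its relation to base composition. Spearman's rho over genes between GC content of the transcript and a library's log2 level minus the mean of the other 5 was −0.275 in siB/siM library 1 and −0.471 in siBCL11A library 1, against −0.003 to 0.351 in the other 4. The total of calls, the counts of the gene lists and the calls of named genes are therefore also given without both of these libraries. Of cell type markers, 3 of 8 of basal or mesenchymal breast cancer lines (VIM, CD44 and CAV1) and 3 of 8 luminal ones (KRT18, KRT19 and EPCAM) had values. So did 2 of 7 immune markers (LAPTM5 and CD68). Of 12 endothelial, fibroblast and mural markers 1 did (COL1A2, 0.656 to 1.26 RPKM in siB/siM and 1.06 to 1.29 RPKM in siBCL11A). A gene has values only if the authors listed it against siNS in both blocks, so a missing value does not show that a marker was not expressed. The summed level of 3 luminal markers was 575 to 606 RPKM in siB/siM and 545 to 587 RPKM in siBCL11A, and that of 3 markers of basal or mesenchymal lines 1342 to 1398 RPKM in siB/siM and 1402 to 1423 RPKM in siBCL11A. The summed level of the immune markers was 32.4 to 34.5 RPKM in siB/siM and 34.3 to 38.4 RPKM in siBCL11A.

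The siRNA target that separates the groups was at its lower level where its pool had been given. MBNL1 had 3.53, 3.65 and 3.56 RPKM in the siB/siM libraries, against 27.7, 27.5 and 27.6 RPKM in the siBCL11A libraries. The groups did not overlap, and the libraries within each group lay close together. The difference of −2.64 ± 0.07 (limma, adjusted p = 2.92e-10) was the furthest from 0 of all genes tested and was called under every alternative run for it, where it lay between −2.91 and −1.93. In the other groups MBNL1 had 3.17, 3.52 and 2.55 RPKM with the MBNL1 pool alone and 10.2 and 9.77 RPKM with siNS. Every siBCL11A library was thus above siNS, with a mean log2 difference of 1.38, and every siB/siM library below it, with −1.26. The −2.64 covers both and is not the size of the fall from siNS. MBNL2 had 6.49, 6.16 and 6.54 RPKM in siB/siM and 6.06, 6.19 and 6.23 RPKM in siBCL11A, overlapping ranges with a difference of 0.05 ± 0.05 (adjusted p = 0.605). BCL11A and MBNL3 have no values in these blocks and are not analysed here, so a fall of BCL11A itself was not shown for either group.

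Apart from MBNL1, differences between siB/siM and siBCL11A were small for most genes listed in both blocks. Another 849 genes were listed for siBCL11A and not for siB/siM, and 2189 for siB/siM and not for siBCL11A. Those genes could not be compared, so the sizes and shares below hold only for genes that differed from siNS in both groups. Of 4324 genes with a mean of at least 1 RPKM in either group (187 fell below), 521 were called, a share of 12%. Of these, 432 were higher in siB/siM (9.99% of genes tested) and 89 were lower (2.06%). For 1505 genes (34.8%) no library of one group reached the range of the other, 1108 of them higher in siB/siM (25.6%) and 397 lower (9.18%). Differences from the 5th to the 95th percentile ran from −0.16 to 0.30, with a median of 0.04. A size of at least 0.5 was reached by 33 genes called higher and 13 called lower, and a size of at least 1 by 1 called higher and 3 called lower. The excess of higher calls depended on the scaling between libraries: with each library centred on its median, 269 genes were higher and 189 lower (58.73% higher, against 82.92% as deposited), and with quantile normalization 233 of 416 called genes were higher (56.01%). The replicate number as a block in a fit of the 6 libraries, called the replicate block below, gave 557 higher and 149 lower, against 436 and 107 for the same 6 libraries without it; the block in a fit of all 11 libraries gave 417 and 80. A correction for GC content with that block, added after the data were seen, gave 308 higher and 288 lower (51.68%), against 530 and 147 with the block alone on the same genes. The median GC content was 50.04% for the 400 genes called higher with a GC value, 47.79% for 85 called lower and 47.98% for 3550 not called; the part of GC content in the calls was not tested further.

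The number of calls moved with single libraries. It was 350, 234 and 300 without siB/siM library 1, 2 or 3, and 265, 206 and 462 without siBCL11A library 1, 2 or 3. Without both libraries 1 it was 166, of which 143 were higher and 23 lower. Taking the number of tests as the 23227 genes behind the authors' own adjustment left 133 calls, 116 higher and 17 lower. For single genes up to 20 alternatives were run, which left out the minimum differences and the fits without a siNS or siMBNL1 library, and "every alternative" below means these. Of the 74 called genes that the naming rule picked or that were chosen after their values were seen, 29 held their call under every alternative, 41 lost it with the adjustment over 23227 genes and 40 without both libraries 1. Without both libraries 1 the calls of SNORA68, LIG1, COL13A1, KRT19, HIST1H3B and PLAUR ended, which held when any 1 library was left out. The other named genes that lost their call there were SNORA22, SNORA70, HIST2H3D, HIST1H2AG, RABAC1, CST1, CST4, TMEM131, PTBP1, PTBP3, SRSF1, CCNB2, KIF20A, BUB1B, RB1, COL4A5, NEDD9, KRT81, CXCL2, HLA-C, BNIP3, PGAM1, HSP90B1, PDIA4, SLC3A2, PSAT1, INSIG1, PMEPA1, PTPN14, YAP1 and NEDD4L, and each of these also lost it without at least 1 single library, as given with the gene.

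**Figure D1:**
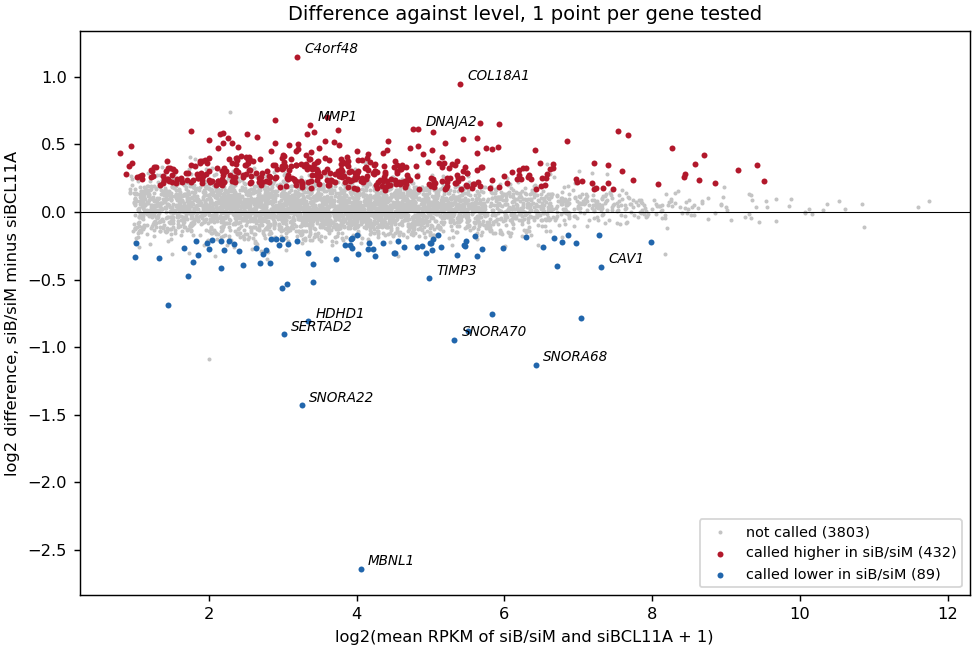
Log2 difference (siB/siM minus siBCL11A, y axis) against log2 of the mean RPKM of both groups plus 1 (x axis), 1 point per gene tested; red marks genes called higher and blue genes called lower in siB/siM. MBNL1 stands alone at −2.64, and nearly all other points lie within 1 of 0.

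Among genes with higher levels in siB/siM, the largest named one to hold under every alternative run for it was COL18A1, the collagen whose C-terminal fragment is endostatin. Its levels were 50.7, 53.8 and 59.1 RPKM in siB/siM, against 25.2, 26.7 and 31.8 RPKM in siBCL11A. The siNS libraries had 41.7 and 41.5 RPKM. Every siB/siM library lay above the siNS libraries and every siBCL11A library below them, and the difference was 0.95 ± 0.09 (limma, adjusted p = 0.000421). DNAJA2, a cochaperone of HSP70, had 33.4, 33.3 and 33.7 RPKM in siB/siM, against 21.6, 21 and 22 RPKM in siBCL11A (0.61 ± 0.05, adjusted p = 0.000243). With the siNS libraries at 45.1 and 43.9 RPKM, the siB/siM level lay between siBCL11A and siNS. MMP1, the interstitial collagenase that cuts fibrillar collagen, had 12.9, 11.2 and 10.6 RPKM in siB/siM, against 7.75, 6.63 and 6.79 RPKM in siBCL11A (0.64 ± 0.07, adjusted p = 0.000788). Both groups were far below 53.1, 55.4 and 50.5 RPKM in siMBNL1 and 84.5 and 80.1 RPKM in siNS.

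Other genes that were higher in siB/siM under every alternative run had roles in replication, mitochondria and apoptosis. CHTF18, a subunit of an alternative clamp loader, had 7.09, 8.59 and 8.71 RPKM in siB/siM, against 4.26, 4.95 and 4.87 RPKM in siBCL11A (0.68 ± 0.13, adjusted p = 0.00743). MRPL41, a mitochondrial ribosomal protein, had 55, 63.4 and 66.1 RPKM in siB/siM, against 32.2, 39.4 and 44.5 RPKM in siBCL11A (0.66 ± 0.11, adjusted p = 0.00565). COX5B, a subunit of cytochrome c oxidase, had 203, 234 and 226 RPKM in siB/siM, against 121, 139.7 and 181 RPKM in siBCL11A (0.60 ± 0.12, adjusted p = 0.00804). In these 3 genes siBCL11A library 1 had the lowest value of its group. With the GC correction and block the difference was smaller, 0.29 for MRPL41 and 0.44 for CHTF18, and still called. BAD, a BH3-only protein that promotes apoptosis, had 28.5, 34.1 and 32.8 RPKM in siB/siM, against 17.5, 20.3 and 23.8 RPKM in siBCL11A (0.61 ± 0.10, adjusted p = 0.00621). LOC100133286, a transcript with no named function in the files, had 12.1, 15.3 and 14.6 RPKM in siB/siM, against 7.15, 7.5 and 10.2 RPKM in siBCL11A (0.70 ± 0.12, adjusted p = 0.00624).

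The remaining genes among the 12 named upward differences lost their calls without single libraries. C4orf48 had 8.01, 13.5 and 13 RPKM in siB/siM, against 2.62, 4.92 and 6.84 RPKM in siBCL11A, a difference of 1.15 ± 0.25 with the widest spread of the set (limma, adjusted p = 0.0161). Its call ended without siB/siM library 2 or 3 (adjusted p up to 0.063). SSBP4, a single-stranded DNA-binding protein, differed by 0.60 ± 0.13 and also lost its call without siB/siM library 2 or 3 (adjusted p up to 0.0559). RABAC1, a prenylated Rab acceptor, differed by 0.59 ± 0.14, and HIST2H3D, a histone H3 gene, by 0.65 ± 0.15. With the GC correction and block the difference was 0.73 for C4orf48, 0.35 for SSBP4 and 0.39 for HIST2H3D. RABAC1 and HIST2H3D lost their call without siB/siM library 2 or 3 or siBCL11A library 1 or 2, with adjusted p-values up to 0.0689 for RABAC1 and 0.0657 for HIST2H3D.

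Genes with lower levels in siB/siM were fewer, and the 3 of the largest size after MBNL1 and the short RNAs had their lowest mean levels with the MBNL1 pool alone. SERTAD2, a transcriptional coregulator linked to E2F activity, had 4.6, 4.78 and 4.43 RPKM in siB/siM, against 9.78, 9.87 and 8.87 RPKM in siBCL11A (−0.91 ± 0.09, limma, adjusted p = 0.000286). The siMBNL1 libraries had 2.16, 2.43 and 1.85 RPKM and the siNS libraries 8.59 and 6.58 RPKM. HDHD1, a haloacid dehalogenase-like phosphatase that acts on pseudouridine monophosphate, had 5.75, 7.25 and 6.2 RPKM in siB/siM, against 12.2, 12.1 and 11.5 RPKM in siBCL11A (−0.81 ± 0.08, adjusted p = 0.000323). It had 3.75, 4.28 and 3.58 RPKM in siMBNL1 and 16.7 and 14.5 RPKM in siNS. For both genes the siB/siM libraries lay between the siMBNL1 and the siBCL11A libraries with no overlap. PNPLA8, a calcium-independent phospholipase, had 6.08, 5.27 and 4.97 RPKM in siB/siM, against 8.43, 8 and 9.01 RPKM in siBCL11A (−0.56 ± 0.08, adjusted p = 0.00285).

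TIMP3, a matrix-bound inhibitor of metalloproteinases, had 26, 25.9 and 24.1 RPKM in siB/siM, against 36.3, 36.8 and 34.9 RPKM in siBCL11A, 33.7, 34.7 and 29.5 RPKM in siMBNL1 and 60.2 and 63.2 RPKM in siNS (−0.49 ± 0.06, limma, adjusted p = 0.00144). Every siB/siM library was below every library of the other 3 groups. CAV1, the main coat protein of caveolae, had 139, 139 and 128 RPKM in siB/siM, against 181, 179 and 179 RPKM in siBCL11A (−0.40 ± 0.06, adjusted p = 0.00299). In the siMBNL1 libraries it had 109, 118 and 101 RPKM. AHNAK, a giant scaffold protein, had 89.6, 86.7 and 91.8 RPKM in siB/siM, against 115, 117 and 123 RPKM in siBCL11A (−0.40 ± 0.05, adjusted p = 0.00299). ARNT2, a basic helix-loop-helix PAS transcription factor, differed by −0.38 ± 0.07 (adjusted p = 0.00624) and TMEM45A, a membrane protein, by −0.39 ± 0.08 (adjusted p = 0.00832). These 5 calls held under every alternative run. A pseudocount of 5 in place of 1 gave smaller differences for genes with low levels, −0.59 for SERTAD2, −0.37 for PNPLA8, −0.24 for ARNT2 and −0.22 for TMEM45A, and kept their calls.

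TMEM131 differed by −0.39 ± 0.11 and the cystatins CST1 and CST4, secreted inhibitors of cysteine proteases, by −0.54 ± 0.14 and −0.51 ± 0.12. Their calls did not hold. CST1 lost its call without siB/siM library 1 or 3 or siBCL11A library 2 or 3 (limma, adjusted p up to 0.107), and CST4 without siB/siM library 1 or 3 or siBCL11A library 1 or 2 (up to 0.0746). TMEM131 lost its call without any 1 of the siB/siM libraries and without siBCL11A library 1 or 2 (up to 0.156). CST1 and CST4 are close paralogs whose reads the counting could have split, so their values are uncertain.

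Short RNAs were counted apart. Of 16 tested, 7 were called, all lower in siB/siM, beside 2.06% of all genes tested. SNORA68, a box H/ACA RNA that guides pseudouridylation of ribosomal RNA, had 39.6, 55.4 and 61.8 RPKM in siB/siM, against 153, 119 and 80.5 RPKM in siBCL11A (−1.13 ± 0.21, limma, adjusted p = 0.00984). SNORA70 had 23.4, 26.9 and 25.5 RPKM in siB/siM, against 77.3, 49.1 and 31.8 RPKM in siBCL11A (−0.95 ± 0.22, adjusted p = 0.0157). SNORA22 had 4.28, 2.74 and 3.92 RPKM in siB/siM, against 24.5, 10.6 and 5.43 RPKM in siBCL11A (−1.43 ± 0.37, adjusted p = 0.0334). In all 3 the highest value was in siBCL11A library 1, without which the difference was −0.91 for SNORA22 and −0.63 for SNORA70. All 3 calls ended when both libraries 1 were left out and with limma's trend and robust options. SNORA70 also lost its call without siB/siM library 1 or siBCL11A library 2 (up to 0.0534), and SNORA22 without any 1 of the siB/siM libraries or siBCL11A library 2 (up to 0.108).

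**Figure D2:**
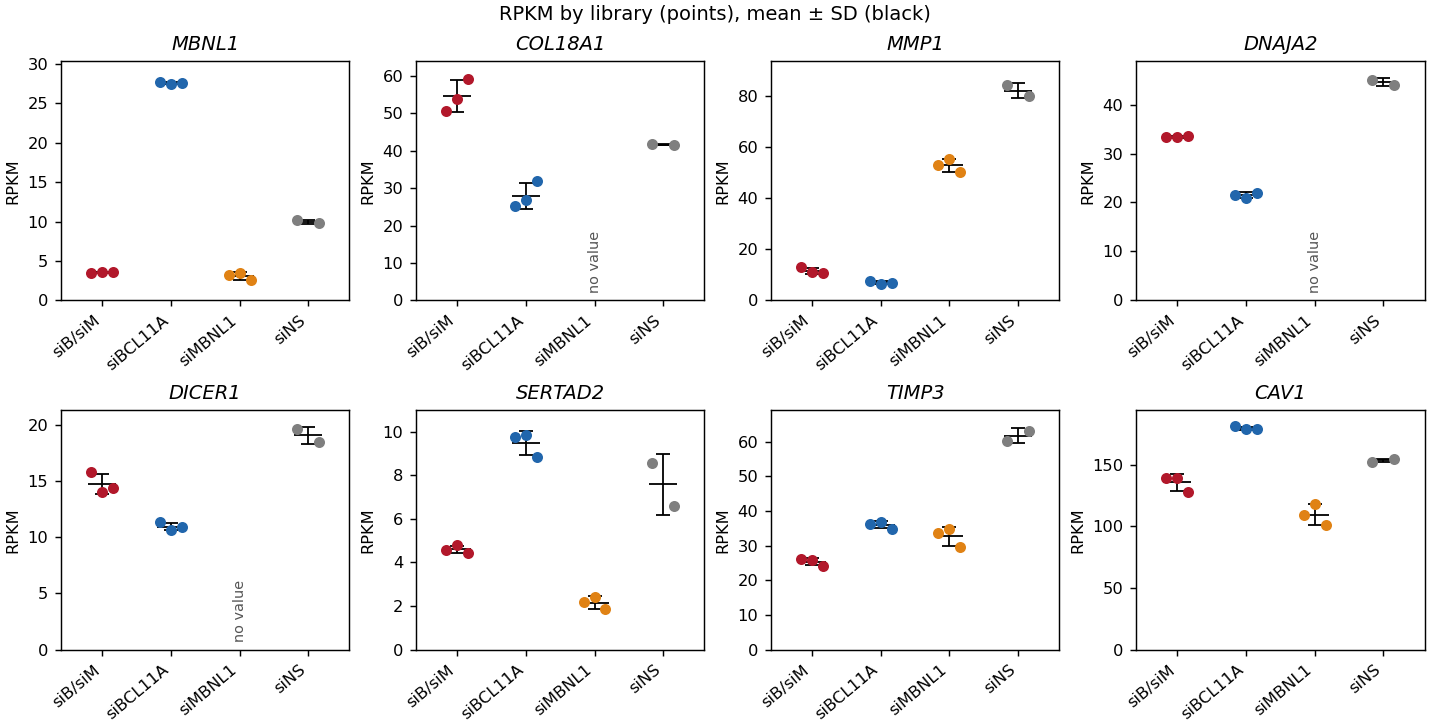
RPKM of 8 genes (y axes from 0) in the libraries of siB/siM, siBCL11A, siMBNL1 and siNS (x axes); points are libraries, black bars the mean ± SD. COL18A1, MMP1, DNAJA2 and DICER1 were higher and MBNL1, SERTAD2, TIMP3 and CAV1 lower in siB/siM than in siBCL11A, with no overlap between the libraries of these groups.

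Genes were then grouped by function, and each count is set beside the background of 9.99% called higher and 2.06% called lower and the median of 0.04. That background, 432 genes higher and 89 lower, is from the fit of all 11 libraries as deposited. Over all genes it was 269 and 189 with median centring, 557 and 149 with the replicate block, and 308 and 288 with the GC correction and block. Among 7 RNA-binding splicing regulators with values, 2 were higher and 2 lower (median 0.01). Beside MBNL1 the lower one was CELF1, a splicing regulator that often opposes MBNL proteins, with 18.9, 19.3 and 19.6 RPKM in siB/siM, against 23.8, 24.5 and 23.9 RPKM in siBCL11A (−0.31 ± 0.05, limma, adjusted p = 0.00537). The siNS libraries had 16.2 and 16.1 RPKM, so CELF1 lay above siNS in both groups. PTBP1, the polypyrimidine tract-binding repressor of exons, was higher by 0.24 ± 0.05 and its paralog PTBP3 by 0.27 ± 0.07. The PTBP1 call ended without siB/siM library 2 or siBCL11A library 1 (adjusted p up to 0.0553) and under the GC correction with the block, and that of PTBP3 without siB/siM library 1 or 2 or any 1 of the siBCL11A libraries (up to 0.0959). Without both libraries 1 no member was higher and 2 were lower. Of 10 SR proteins, hnRNPs and core splicing factors, 1 was higher and 0 lower (median 0.07): SRSF1 differed by 0.21 ± 0.05, a call that ended without siBCL11A library 2 (adjusted p = 0.0636).

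Proteases and their inhibitors were called in both directions. Of 18 with values, 3 were higher and 3 lower in siB/siM (median 0.01). The higher ones were MMP1, PLAUR and MMP14, of which PLAUR and MMP14, like PLAU below, were singled out after their values were seen. PLAUR, the urokinase receptor, had 59.4, 55.3 and 56.3 RPKM in siB/siM, against 43.3, 45.6 and 46.4 RPKM in siBCL11A (0.33 ± 0.06, limma, adjusted p = 0.00537). MMP14, a membrane-bound metalloproteinase that activates other proteases, had 99, 105 and 106 RPKM in siB/siM, against 81.5, 86.5 and 87.1 RPKM in siBCL11A (0.28 ± 0.05, adjusted p = 0.00832). The PLAUR call ended without both libraries 1 (adjusted p = 0.0533). The count of higher members was 3 or 4 when any 1 library was left out and 3 without both libraries 1, where 1 was lower. The lower ones were TIMP3, CST1 and CST4, of which TIMP3 alone held with any 1 library left out. PLAU, the urokinase ligand of PLAUR, had 174, 180.3 and 173 RPKM in siB/siM and 169, 176 and 177 RPKM in siBCL11A, with overlapping ranges (0.02 ± 0.05, adjusted p = 0.844).

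Among 16 collagens, laminins and matrix glycoproteins, 5 were higher and 0 lower, and 14 differences were positive (median 0.17); 1 member was called lower after median centring and with the GC correction and block. The replicate block called 8 of them higher. COL6A1, a chain of beaded-filament collagen, had 53.6, 57.3 and 62.8 RPKM in siB/siM, against 35.2, 40.1 and 42.8 RPKM in siBCL11A (0.55 ± 0.08, limma, adjusted p = 0.00438). COL5A1, a chain of the collagen that regulates fibril diameter, had 45.2, 51.4 and 55 RPKM in siB/siM, against 32.1, 33.1 and 38 RPKM in siBCL11A (0.54 ± 0.09, adjusted p = 0.00434). For COL6A1 and COL5A1 both groups lay below siNS, at 67.2 and 70.4 RPKM for COL6A1 and 81.7 and 83.8 RPKM for COL5A1. COL13A1, a transmembrane collagen, differed by 0.33 ± 0.06 and lost its call without both libraries 1. The other called member, COL4A5, a basement membrane chain singled out after its values were seen, differed by 0.33 ± 0.07 (adjusted p = 0.012), a call that ended without siB/siM library 2 or siBCL11A library 2 (up to 0.0562). Leaving out 1 library gave 4 to 7 higher members and 0 lower ones, and leaving out both libraries 1 gave 3.

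Of 15 integrins and focal adhesion genes, 1 was higher and 1 lower (median −0.01), and the number lower was 0 without both libraries 1, 2 with the replicate block and 4 with the GC correction and block. PTK2, focal adhesion kinase, had 34.8, 33.4 and 34.3 RPKM in siB/siM, against 25.5, 25.6 and 27.5 RPKM in siBCL11A (0.37 ± 0.06, limma, adjusted p = 0.00518), a call that held under every alternative run for it. NEDD9, an adaptor of focal adhesion signalling, differed by −0.22 ± 0.06, and its call ended without siB/siM library 2 or 3 or siBCL11A library 1 or 2 (adjusted p up to 0.112). MYL9, a myosin regulatory light chain, differed by −0.24 ± 0.08 with overlapping libraries (adjusted p = 0.0728). It passed with the replicate block (0.0237), with median centring, quantile normalization or limma's trend and robust options, and without siBCL11A library 1. Of 6 mesenchymal genes, 1 was higher and 0 lower (median 0.01), with 1 lower after median centring, quantile normalization or the GC correction with the block. TAGLN, an actin-binding smooth muscle protein, had 8.38, 7.65 and 8.47 RPKM in siB/siM, against 5.47, 5.84 and 6.21 RPKM in siBCL11A (0.42 ± 0.06, adjusted p = 0.00285). VIM, vimentin, had 1057, 1089 and 1073 RPKM in siB/siM and 1066, 1064 and 1098 RPKM in siBCL11A (0.00 ± 0.04, adjusted p = 0.968).

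Of 13 epithelial genes, 3 were higher and 0 lower (median 0.17). KRT19, a simple-epithelium keratin, had 209, 214 and 214 RPKM in siB/siM, against 159, 172 and 185 RPKM in siBCL11A (0.31 ± 0.06, limma, adjusted p = 0.00954) and lost its call when both libraries 1 were left out. EPCAM, an epithelial adhesion molecule, differed by 0.29 ± 0.08 and the hair-type keratin KRT81 by 0.28 ± 0.08. EPCAM lost its call without siB/siM library 2 or 3 or any 1 of the siBCL11A libraries (adjusted p up to 0.124), and KRT81 without any 1 of the siB/siM libraries or siBCL11A library 1 or 2 (up to 0.13). With the GC correction and block the KRT81 difference was 0.13 and not called (adjusted p = 0.0882), and both calls ended with the block on all 11 libraries. The number of epithelial genes called higher was 2 without both libraries 1. Of 3 luminal breast markers, which include KRT19 and EPCAM, 2 were higher and 0 lower, and KRT18 differed by −0.02 ± 0.05 (adjusted p = 0.822). Of 3 markers of basal or mesenchymal breast cancer lines, 1 was lower (CAV1) and 0 higher.

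Among lists with at least 6 values, YAP and TEAD targets had the lowest median, −0.14, with 2 of 11 differences above 0. Of the 11, 3 were lower and 1 higher, against a background of 2.06% and 9.99%. The list also holds the regulators YAP1 and TEAD4 themselves, so not all members are targets. The lower ones were CAV1, PTPN14 and YAP1. The 1 higher member was not among those the naming rule picked from this list. TEAD4 had 16.3, 17.2 and 15.5 RPKM in siB/siM, against 11.7, 13.6 and 16.1 RPKM in siBCL11A. Its libraries overlapped and it was not called (0.24 ± 0.09, limma, adjusted p = 0.112), though it passed under 1 alternative. PTPN14, a phosphatase that restrains YAP, had 11.6, 12.3 and 12.6 RPKM in siB/siM, against 14.8, 14.6 and 14.2 RPKM in siBCL11A (−0.24 ± 0.06, limma, adjusted p = 0.0243); its call ended without siB/siM library 1 or 2 or siBCL11A library 1 or 2 (up to 0.0791). YAP1, the coactivator itself, singled out after its values were seen, had 29.1, 29.1 and 27.6 RPKM in siB/siM, against 34.1, 33.2 and 33.8 RPKM in siBCL11A (−0.23 ± 0.06, adjusted p = 0.0349), and its call ended without any 1 of the 6 libraries (up to 0.117). CTGF, a matricellular target of YAP, had 33.9, 36.5 and 33.4 RPKM in siB/siM, against 39.5, 44.8 and 39.6 RPKM in siBCL11A (−0.25 ± 0.08), with no overlap but an adjusted p of 0.067, and 0.018 with the replicate block or 0.039 on the 6 libraries without it. Median centring, quantile normalization and the GC correction with the block each called 6 members lower and 0 higher. All 3 settings also called more of all genes lower, for example 189 of 4324 with median centring and 288 of 4035 with the GC correction and block, against 89 of 4324. The number of list members called lower was 1, 1 and 2 without siB/siM library 1, 2 or 3 and 1, 1 and 2 without siBCL11A library 1, 2 or 3. It was 1 without both libraries 1.

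All called genes of G2/M and mitosis were higher in siB/siM, beside 82.92% of all called genes. Of 31 with values, 7 were higher and 0 lower, 28 differences were positive and the median was 0.13. CCNA2, cyclin A, had 89.1, 85.2 and 86.7 RPKM in siB/siM, against 72.7, 70.4 and 71.7 RPKM in siBCL11A (0.28 ± 0.05, limma, adjusted p = 0.00681) and was called under every alternative run for it. In siMBNL1 it had 96.4, 101 and 90.1 RPKM and in siNS 50.6 and 52 RPKM. BUB1B, a spindle checkpoint kinase, had 44.7, 42.9 and 43.3 RPKM in siB/siM, against 37.1, 36.3 and 37.8 RPKM in siBCL11A (0.23 ± 0.05, adjusted p = 0.0153), and its call ended without siBCL11A library 2 (adjusted p = 0.0663). CCNB2, cyclin B2, differed by 0.27 ± 0.07 and lost its call without any 1 of the siB/siM libraries or siBCL11A library 1 or 2 (up to 0.129). The mitotic kinesin KIF20A differed by 0.24 ± 0.06 and lost its call without siB/siM library 2 or 3 or siBCL11A library 1 or 2 (up to 0.0765). The number called higher was 4, 2 and 3 without siB/siM library 1, 2 or 3, and 2, 1 and 6 without siBCL11A library 1, 2 or 3. It was 1 without both libraries 1, 4 after median centring and 3 after quantile normalization, with 0 lower in each of these.

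Of 35 genes of G1/S and DNA replication, 3 were higher and 1 lower (median 0.06), and the replicate block called 5 higher. LIG1, the replicative DNA ligase, had 26.4, 27.9 and 27.8 RPKM in siB/siM, against 19.9, 20.8 and 23.9 RPKM in siBCL11A (0.34 ± 0.07, limma, adjusted p = 0.00896) and lost its call when both libraries 1 were left out. RB1, the retinoblastoma protein that restrains E2F, had 20.5, 19.5 and 18.5 RPKM in siB/siM, against 25.7, 23.4 and 23.8 RPKM in siBCL11A (−0.30 ± 0.06, adjusted p = 0.0129), and its call ended without siB/siM library 3 or siBCL11A library 1 (up to 0.0503). CCNE2, cyclin E2, differed by 0.22 ± 0.07 and CCND3, cyclin D3, by 0.20 ± 0.06; neither passed (adjusted p = 0.0579 and 0.0674), while both did with the replicate block (0.0331 and 0.0333). The number called higher was 3, 1 and 2 without siB/siM library 1, 2 or 3, and 1, 1 and 2 without siBCL11A library 1, 2 or 3, and 0 without both libraries 1.

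Histone genes had the highest median of the lists with at least 6 values, 0.23, with 8 of 14 members higher, 0 lower and 13 differences above 0. HIST1H3B had 757, 771 and 767 RPKM in siB/siM, against 551, 601 and 656 RPKM in siBCL11A (0.35 ± 0.07, limma, adjusted p = 0.0113). HIST1H2AG had 446, 488 and 492 RPKM in siB/siM, against 319, 346 and 403 RPKM in siBCL11A (0.42 ± 0.10, adjusted p = 0.0204). In both genes siBCL11A library 1 was the lowest of all 6 libraries. The HIST1H2AG call ended without siB/siM library 2 or 3 or siBCL11A library 1 or 2 (up to 0.0824) and after median centring. The number called higher was 4, 1 and 1 without siB/siM library 1, 2 or 3, and 1, 1 and 9 without siBCL11A library 1, 2 or 3. It was 0 without both libraries 1, 1 after median centring and 3 after quantile normalization. Many histone genes are near-identical copies whose reads the counting could have split, so their values are uncertain. No member of the lists of p53 targets (6 genes, median 0.03), SWI/SNF and NuRD subunits and corepressors (11, median 0.03) and cytosolic ribosomal proteins (12, median −0.02) was called by limma in either direction. Within them SS18, a SWI/SNF subunit, differed by 0.18 ± 0.07 (adjusted p = 0.0903, and 0.041 with the replicate block).

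The cytokine and interferon genes called by limma on all 11 libraries were higher in siB/siM, as were 82.92% of all called genes. The replicate block also called 2 interferon-stimulated genes lower. Of 9 NF-kB and inflammatory genes, 3 were higher and 0 lower (median 0.11). IL11, a cytokine of the IL-6 family linked to bone metastasis of breast cancer, had 8.79, 10.0 and 9.64 RPKM in siB/siM, against 5.81, 7.15 and 7.05 RPKM in siBCL11A (0.45 ± 0.08, limma, adjusted p = 0.00624), and the siNS libraries had 11.5 and 11.4 RPKM. With the GC correction and block the difference was 0.30 for IL11, 0.35 for ISG15 and 0.18 for HLA-C, each still called, and 0.34 for IRF7, where the call ended (adjusted p = 0.0642). The call of IRAK2, a kinase of interleukin 1 receptor signalling (0.27 ± 0.06), ended without siB/siM library 2 or siBCL11A library 2 (adjusted p up to 0.0583). That of CXCL2 (0.27 ± 0.08), a chemokine at 0.781 to 1.43 RPKM, ended without any 1 of the siB/siM libraries or siBCL11A library 2 or 3 (up to 0.149). The CXCL2 difference was 0.47 with a pseudocount of 0.1, and 0.09 with one of 5 and 0.13 with the GC correction and block, where its call also ended (adjusted p = 0.162 and 0.177). Its call ended too with no filter, median centring, quantile normalization, the trend and robust options and the block on all 11 libraries. Of 21 interferon-stimulated genes, 3 were higher and 0 lower (median 0.01), against 4 higher and 2 lower with the replicate block and 3 and 3 with the GC correction and block. Without both libraries 1, 2 NF-kB and 2 interferon-stimulated genes were higher. ISG15, a ubiquitin-like modifier, had 126, 135 and 140.1 RPKM in siB/siM, against 80.8, 93.6 and 106 RPKM in siBCL11A (0.52 ± 0.10, adjusted p = 0.00709), and siNS had 174 and 179.9 RPKM. IRF7, an interferon regulatory factor, had 3.57, 4.95 and 4.38 RPKM in siB/siM, against 2.52, 2.1 and 3.02 RPKM in siBCL11A (0.58 ± 0.12, adjusted p = 0.0123) and lost its call without siB/siM library 2 or siBCL11A library 2 (up to 0.054). HLA-C, a class I histocompatibility chain with close paralogs, differed by 0.31 ± 0.07 and lost its call without siB/siM library 3 or siBCL11A library 1 (up to 0.0545). ISG20, an exonuclease, differed by 0.33 ± 0.13 and passed with the replicate block (adjusted p = 0.0138, against 0.117 without it).

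DICER1, ASNS and FADS2 kept their calls under every alternative run. DICER1, the ribonuclease that makes microRNAs, had 15.8, 14.1 and 14.4 RPKM in siB/siM, against 11.3, 10.7 and 10.9 RPKM in siBCL11A (0.40 ± 0.06, limma, adjusted p = 0.0044). It was the only one of 4 small RNA pathway genes called (median −0.01); 1 was lower after median centring, quantile normalization or the GC correction with the block. With siNS at 19.6 and 18.5 RPKM, both groups were below siNS. ASNS, asparagine synthetase and a target of the integrated stress response, had 37.6, 34.1 and 35.1 RPKM in siB/siM, against 45.2, 44.8 and 43.5 RPKM in siBCL11A (−0.32 ± 0.05, adjusted p = 0.00681). Of 19 genes of the integrated stress response and ER chaperones, 3 were higher and 2 lower (median 0.07). PSAT1, a serine synthesis enzyme singled out after its values were seen, was the other lower one (−0.21 ± 0.05, adjusted p = 0.0283), and its call ended without siB/siM library 1 or 2 or any 1 of the siBCL11A libraries (up to 0.104). The higher ones were the ER chaperone HSP90B1 (0.24 ± 0.05), the disulfide isomerase PDIA4 (0.23 ± 0.06) and the amino acid transporter chain SLC3A2 (0.22 ± 0.06). HSP90B1 lost its call without siB/siM library 2 or siBCL11A library 2 (adjusted p up to 0.059). PDIA4 and SLC3A2 lost theirs without any 1 of the siB/siM libraries or siBCL11A library 1 or 2 (up to 0.101 and 0.0987). Without both libraries 1 no member was higher and 1 was lower.

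Of 12 sterol genes, 3 were higher and 0 lower (median 0.11). FADS2, a fatty acid desaturase, had 20.1, 19.7 and 20.4 RPKM in siB/siM, against 14.5, 15.2 and 17 RPKM in siBCL11A (0.35 ± 0.06, limma, adjusted p = 0.00567). INSIG1, a feedback regulator of sterol synthesis, differed by 0.31 ± 0.08 and lost its call without siB/siM library 1 or 2 or any 1 of the siBCL11A libraries (up to 0.0759). Without both libraries 1 the number higher was 1. Of 26 hypoxia and glycolysis genes, 2 were higher and 0 lower (median 0.04), and 4 were higher with the replicate block and 0 without both libraries 1. The 2 higher ones were the mitophagy receptor BNIP3 (0.24 ± 0.06), whose call ended without any 1 of the 6 libraries (up to 0.0947), and the glycolytic enzyme PGAM1 (0.21 ± 0.05), whose call ended without siB/siM library 1 or 2 or any 1 of the siBCL11A libraries (up to 0.114) and with the block on all 11 libraries. CA9, carbonic anhydrase 9, differed by 0.41 ± 0.17 with overlapping libraries and passed with the block (adjusted p = 0.0247, against 0.136 without it). Of 12 TGF-beta genes, 1 was higher and 0 lower (median −0.03): PMEPA1, a feedback inhibitor (0.23 ± 0.05), which lost its call without siB/siM library 2 or 3 or siBCL11A library 2 (up to 0.064); 1 member was lower and 0 higher after median centring, quantile normalization or the GC correction with the block. Of 4 respiratory chain genes, COX5B alone was called (median 0.03). None of the 2 immune markers and the 1 fibroblast marker with values was called (limma, adjusted p = 0.258 for LAPTM5, 0.46 for CD68 and 0.456 for COL1A2). All libraries are of 1 cell line, so these markers do not stand for immune cells or fibroblasts. Fewer cells in a given state and less RNA per cell cannot be told apart in these bulk libraries.

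**Figure D3:**
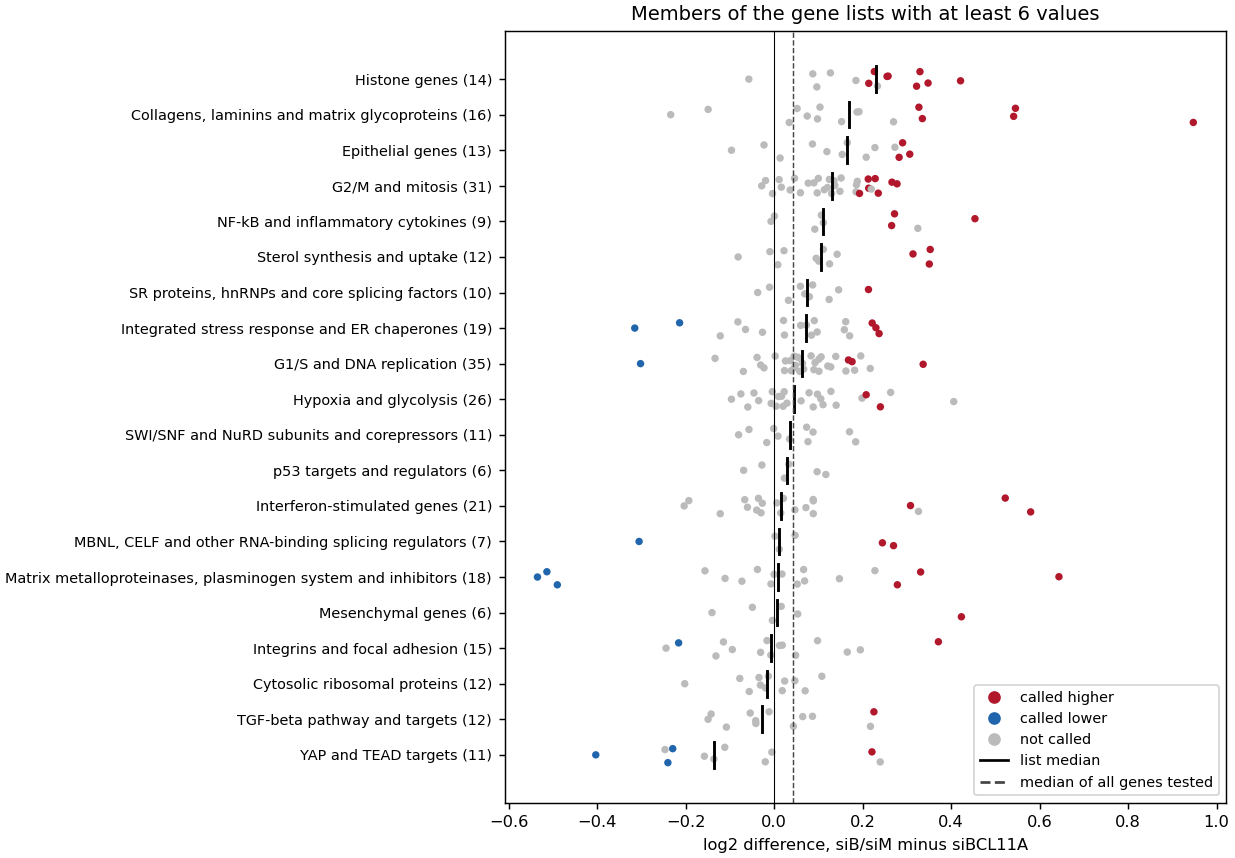
Log2 differences (siB/siM minus siBCL11A, x axis) of the members of each gene list with at least 6 values (y axis, number of members in brackets), coloured by call, with the list median as a black bar and the median of all genes tested, 0.04, as a dashed line. MBNL1 at −2.64 lies outside the axis; histone genes have the highest median (0.23) and YAP and TEAD targets the lowest (−0.14).

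The MBNL1 pool was given in the presence of the BCL11A pool in this comparison and in its absence in siMBNL1 against siNS, and these 2 differences share no library. The genes of every block were, however, listed against the same siNS libraries. Over the 2995 genes with values in all 3 blocks, the siB/siM minus siBCL11A difference had a standard deviation of 0.15 and a median size of 0.08, against 0.61 and 0.49 for siMBNL1 minus siNS. It was the smaller of the 2 in size for 98.7% of these genes. Pearson's r over genes between the 2 differences was 0.16 and Spearman's rho 0.17; genes are not independent replicates. These genes had been listed for passing the authors' test against siNS in siMBNL1, so a large siMBNL1 minus siNS difference largely follows from the listing, and the MBNL1 pool was at 50 nM in one difference and at 100 nM in the other. Among 190 genes with a siMBNL1 minus siNS difference of at least 1 in size, the median size was 0.13 for siB/siM minus siBCL11A and 1.14 for siMBNL1 minus siNS.

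The test of the difference between these differences called 2781 of 2995 genes (92.9%), 1378 positive and 1403 negative. Given how the genes were listed, a call in this test was likely in advance for most of them, so the share is not a finding about the pools. For PRSS2, an anionic trypsinogen with close paralogs, the siB/siM libraries had 4.19, 4.65 and 6.51 RPKM, the siBCL11A libraries 4.36, 4.57 and 7.45 RPKM, the siMBNL1 libraries 4.72, 4.5 and 4.08 RPKM and the siNS libraries 27.1 and 36 RPKM. The 3 knockdown groups thus overlapped and lay below siNS. The same layout held for SPINK4, a Kazal-type protease inhibitor, with 17.7, 23.2 and 17.8 RPKM in siB/siM, 18.6, 17.6 and 22.7 RPKM in siBCL11A, 18.1, 18.1 and 17.9 RPKM in siMBNL1 and 88.7 and 109 RPKM in siNS. ANXA1, a phospholipid-binding annexin, lay above siNS in all 3 knockdown groups, with 532, 502 and 504 RPKM in siB/siM, 462, 475 and 489 RPKM in siBCL11A, 515, 500.3 and 489.8 RPKM in siMBNL1 and 129 and 134 RPKM in siNS. IL6, an inflammatory cytokine, had 9.8, 10.4 and 8.96 RPKM in siB/siM and 8.26, 11 and 10.2 RPKM in siBCL11A, against 5.81, 6 and 4.07 RPKM in siMBNL1 and 22.7 and 24.9 RPKM in siNS.

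Some genes with a large difference between siB/siM and siBCL11A had differences of a similar size with the MBNL1 pool alone. CAV1 differed by −0.40 between siB/siM and siBCL11A and by −0.49 between siMBNL1 and siNS, and the test of the difference gave 0.08 ± 0.09 (limma, adjusted p = 0.376). CELF1 differed by −0.31 and −0.23, with −0.07 ± 0.08 for the difference (adjusted p = 0.382). A p that misses the threshold does not show that the differences were equal. SERTAD2 differed by −0.91 and −1.44, HDHD1 by −0.81 and −1.77 and TIMP3 by −0.49 and −0.90, each with the smaller size between siB/siM and siBCL11A (0.54 ± 0.13, 0.96 ± 0.12 and 0.41 ± 0.09 for the difference, adjusted p = 0.00235, 2.88e-05 and 0.00159). MMP1 had opposite signs, 0.64 between siB/siM and siBCL11A and −0.63 between siMBNL1 and siNS (1.27 ± 0.11, adjusted p = 2.49e-06). The same test called 92.9% of the 2995 genes, which had been listed for differing from siNS in siMBNL1. A call was thus likely in advance, and these p-values cannot show more than the listing. The doses of the pools also differed between the groups, and the part of the doses was not tested. Of the 55 genes called lower in siB/siM that have siMBNL1 values, 44 were below (80.0%) and 11 above siNS in siMBNL1. Of the 287 called higher, 129 were below (44.95%) and 158 above, and of all 2995 genes 1454 were below (48.55%) and 1541 above.

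**Figure D4:**
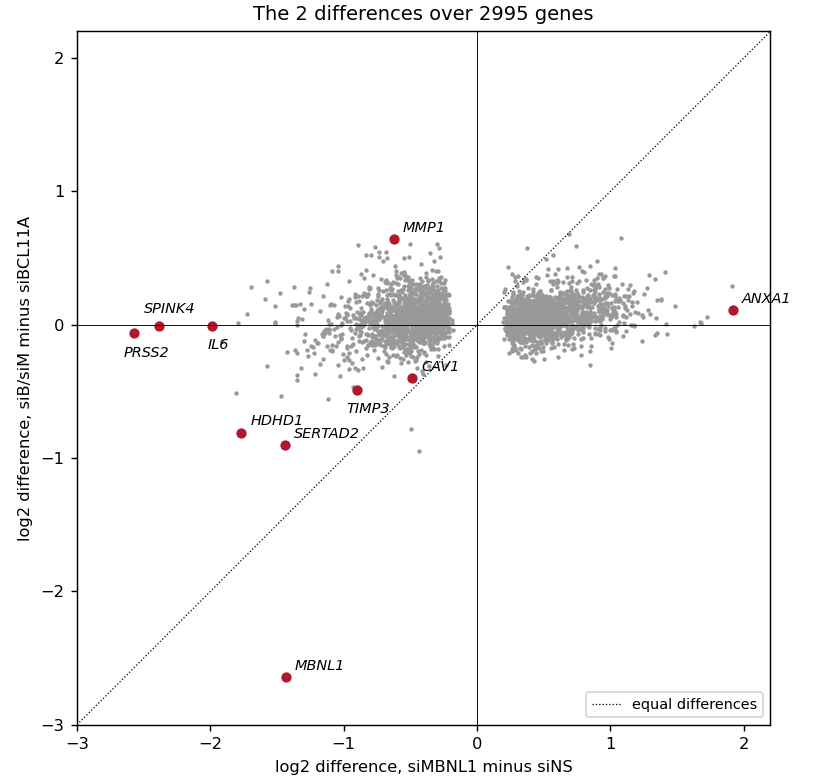
Log2 difference of siB/siM minus siBCL11A (y axis) against that of siMBNL1 minus siNS (x axis) for 2995 genes; the dotted line marks equal differences and red points the named genes. Most points lie close to the horizontal 0 line, while MBNL1, SERTAD2, HDHD1, TIMP3 and CAV1 are below 0 on both axes; the gap around 0 on the x axis comes from the authors' listing.

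Exon inclusion was given in separate lists of cassette exons, 146 for siB/siM and 107 for siBCL11A, each with 1 value for the knockdown and 1 for siNS, so there is no replicate check or test and the depth behind a value is unknown. Both lists hold exons that changed from siNS by at least about 10 percentage points (smallest change 10.01 points for siB/siM and 10.2 points for siBCL11A). They share 31 exons, 21.23% of the siB/siM list and 28.97% of the siBCL11A list, and the lists share the siNS libraries. Of the 31 shared exons, 14 were also in the list of 110 for siMBNL1, and 22 had a length that is a multiple of 3. The shares over the full lists were not worked out, so these counts do not set the shared exons apart. The median difference in size between siB/siM and siBCL11A was 3.67 points, 17 exons differed by under 4 points and 23 by under 10 points.

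For 5 shared exons the 2 groups lay on opposite sides of siNS. The exon of KIF13A, a kinesin that carries vesicles and recycling endosomes, was included at 45.7% in siB/siM, against 92.0% in siBCL11A, with 43.0% in siMBNL1 and 71.6% in siNS. The exon of ITGA6, the laminin-binding integrin alpha 6, whose inclusion exchanges the cytoplasmic tail of the protein, was at 19.4% in siB/siM, against 55.0% in siBCL11A, with 20.2% in siMBNL1 and 38.0% in siNS. For KIF13A and ITGA6 the siB/siM value was thus close to the siMBNL1 value and on the other side of siNS from siBCL11A. The exons of MLLT4, ZDHHC7 and SEC31A are not in the siMBNL1 list, so this cannot be said of them. The exon of MLLT4, the junction protein afadin, was at 5.96% in siB/siM, against 47.1% in siBCL11A and 17.4% in siNS. The exon of ZDHHC7, a protein palmitoyltransferase, was at 13.1% in siB/siM, against 51.8% in siBCL11A and 25.3% in siNS. The exon of SEC31A, a coat protein of vesicles that leave the ER, went the other way, at 83.1% in siB/siM, against 56.8% in siBCL11A and 71.5% in siNS.

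Other exons that differed by at least 10 points lay on the same side of siNS in both groups. The exon of C6orf52 was at 38.7% in siB/siM, against 53.3% in siBCL11A and 11.4% in siNS. That of FAM126A, a subunit of a lipid kinase complex at the plasma membrane, was at 54.9% in siB/siM, against 43.6% in siBCL11A and 72.1% in siNS. In the files' own coordinates (hg19) the KIF13A exon is chr6:17790103-17790141, the ITGA6 exon chr2:173366500-173366629, the MLLT4 exon chr6:168314083-168314103, the ZDHHC7 exon chr16:85022369-85022479 and the SEC31A exon chr4:83763293-83763634.

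Levels of the genes that hold these exons were set beside the inclusion values. Of the 31 exons, 14 lie in genes whose level was tested, and 1 of these genes was called, beside 12% of all genes tested. It was NEDD4L, a ubiquitin ligase named after its values were seen (−0.17 ± 0.05, limma, adjusted p = 0.0417), whose call ended without any 1 of the 6 libraries (up to 0.137) and with the block on all 11. ITGA6 had 114, 116 and 115 RPKM in siB/siM and 122, 115 and 112 RPKM in siBCL11A (−0.02 ± 0.05, adjusted p = 0.874). The regulated exons of MBNL1 and MBNL2, printed above, are in the siBCL11A list and not in the siB/siM list. Their inclusion in siBCL11A was 36.4% for MBNL1, against 65.1% in siNS, and 15.7% for MBNL2, against 41.4% in siNS. Their inclusion in siB/siM is not analysed here.

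**Figure D5:**
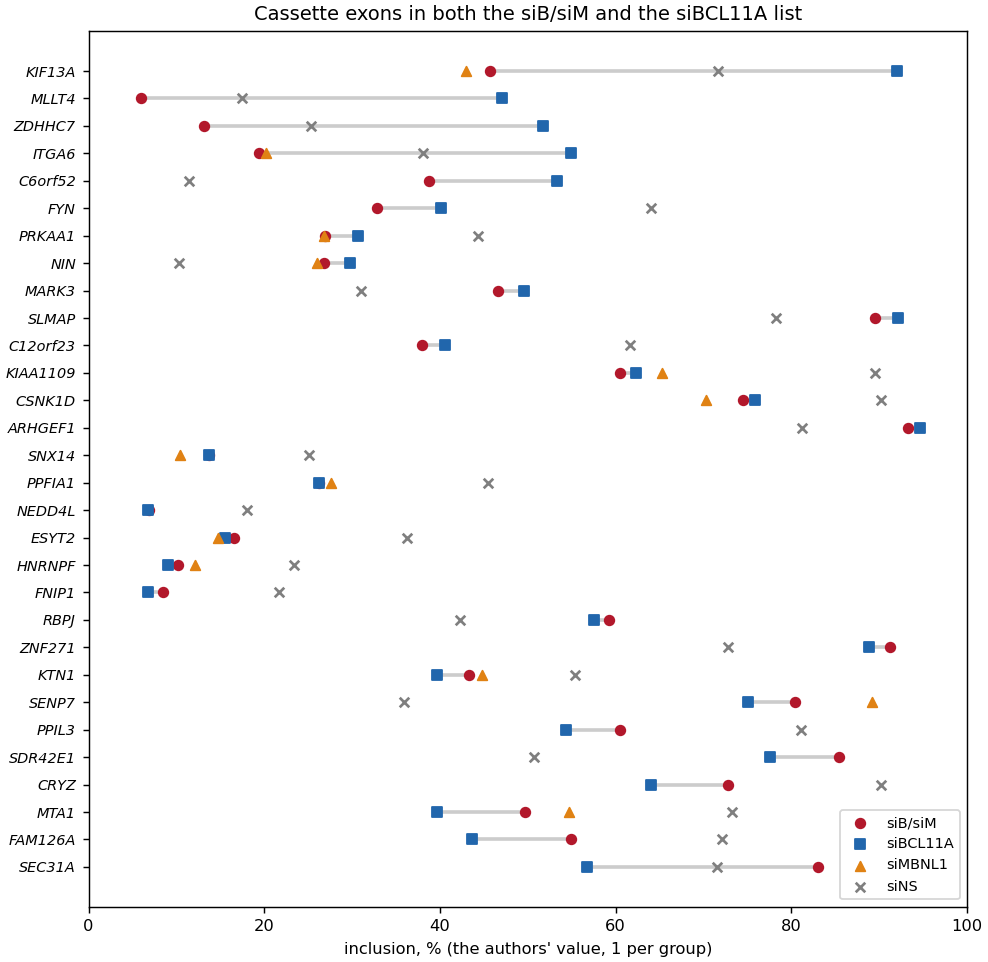
Inclusion of 30 of the 31 cassette exons shared by the siB/siM and siBCL11A lists, in percent (x axis, 1 value per group as the authors gave it), by gene (y axis), with siMBNL1 where listed and siNS; grey bars join siB/siM and siBCL11A. The siB/siM value is lower by 35.6 to 46.3 points in the KIF13A, MLLT4, ZDHHC7 and ITGA6 exons and higher by 26.3 points in the SEC31A exon.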

How the data were processed

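Gene levels are RPKM values as the authors deposited them, on the genome build hg19 per the submitters' processing notes. Which aligner, read counter and exon caller were used is not given in the sources used here. P-values of the authors were read only in the siBCL11A block, to learn how its genes were listed. Its largest adjusted p is 0.05, so its genes are a selected set, and its adjustment implies 23227 genes. The p-values of the other blocks were not read, and these blocks were taken to be listed in the same way. Exon inclusion is the authors' fraction from 0 to 1 per group, printed as a percent. Exon positions come from the deposited browser track, counted from 0 and printed from 1, and other numbers in it were not used. Gene levels carry no counts. The number of reads behind a library was worked out from short RNAs, 29 in siB/siM and 8 to 9 in siBCL11A, as the depth at which 75% to 88.9% of their values are whole reads within 0.05 reads.

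In R 4.3.3, limma 3.58.1 was fitted to log2(RPKM + 1) with 1 mean for each of the 4 groups, each gene on the groups it has, for genes with a mean of at least 1 RPKM in siB/siM or siBCL11A. P-values were adjusted by Benjamini-Hochberg over the genes tested and called under 0.05. The code was tested on simulated data. Tables and figures used Python 3.11.15, pandas 2.3.3, numpy 2.4.6, scipy 1.17.1 and matplotlib 3.10.9. The siNS columns are repeated in the table, and 4 repeated columns were not used. Exons were matched to GENCODE v29 by gene, exon length and both intron lengths, and sequences were read from GRCh38.

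The genes named are the siRNA targets and MBNL paralogs, the 12 largest called differences in each direction without overlap and with at least 5 RPKM in the higher group, at most 3 RNAs under 200 bases, up to 4 members of each list with the largest size, the 6 largest differences of differences and up to 8 shared exons; some of these items are not reported here. The comparison and the gene lists were chosen with earlier results of these data known. Same-numbered libraries of siB/siM and siBCL11A deviated together from their group means (r over 4324 genes 0.336, 0.198 and 0.173 for numbers 1, 2 and 3), which pairs them from the data; the labels do not say what a number marks. Alternatives changed the pseudocount, the filter, the scaling, the libraries fitted, the replicate block, the adjustment and the minimum difference. The GC correction, the fit without both libraries 1 and the fits without single siNS or siMBNL1 libraries were chosen after seeing the data.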

Additional observations from a re-analysis of the deposited data

Results flagged for a closer look

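The siB/siM minus siBCL11A difference and the siMBNL1 minus siNS difference both set the MBNL1 pool against its absence, and they were tested against each other. The groups without the MBNL1 pool had unlike mean levels of MBNL1, 27.6 RPKM in siBCL11A and 9.97 RPKM in siNS. For MBNL1 itself the first difference minus the second was −1.21 ± 0.11. The differences were called unequal for 2781 genes (limma, adjusted p under 0.05). These genes had been listed for differing from siNS in siMBNL1, so a call was likely in advance and its p-value cannot show more than the listing. The listing and the unequal doses were not separated from any other source. The 6 largest estimates of the first difference minus the second are given here. PRSS2 had 2.51 ± 0.26 (adjusted p = 7.20e-06), SPINK4 2.38 ± 0.17 (5.12e-07) and IL6 1.98 ± 0.18 (2.97e-06), with the levels reported above. ST3GAL5, which makes the ganglioside GM3, had 3.19, 2.21 and 2.74 RPKM in siB/siM and 2.16, 2.15 and 1.82 RPKM in siBCL11A, against 3.45, 4.19 and 3.99 RPKM in siMBNL1 and 15.3 and 14.2 RPKM in siNS, and an estimate of 1.98 ± 0.14 (adjusted p = 4.67e-07). IL24, a cytokine of the IL-10 family, had 4.08, 3.88 and 2.84 RPKM in siB/siM and 2.58, 2.53 and 2.83 RPKM in siBCL11A, against 5.86, 6.44 and 4.99 RPKM in siMBNL1 and 20.2 and 17.9 RPKM in siNS, and an estimate of 1.90 ± 0.16 (adjusted p = 1.64e-06). ANXA1 had the only negative estimate of the 6, −1.81 ± 0.07 (adjusted p = 2.06e-08). In the other 5 genes the siNS libraries were the highest of all groups, and in ANXA1 they were the lowest. None of these 6 genes was called between siB/siM and siBCL11A (adjusted p = 0.844 for PRSS2, 0.975 for SPINK4, 0.977 for IL6, 0.0687 for ST3GAL5, 0.0608 for IL24 and 0.171 for ANXA1).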

How the results depend on the processing

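No named gene that was called changed direction under the alternatives run. The main fit called 521 genes (432 higher, 89 lower in siB/siM). Leaving out 1 library of siB/siM or siBCL11A gave 206 to 462 calls (178 to 403 higher, 28 to 59 lower), which included 202 to 392 of the 521. Leaving out both libraries 1 gave 166 calls (143 and 23), which included 157 of the 521. Adjusting over 23227 genes left 133 (116 and 17), a minimum log2 difference of 0.5 left 46 (33 and 13) and one of 1 left 4 (1 and 3). Median centring gave 269 higher and 189 lower, and quantile normalization 233 higher of 416. With the replicate block on the 6 libraries 149 genes were lower, 147 of genes with a GC value and 288 with the GC correction. Among named genes that fit gained 9 calls (CCNE2, CCND3, MYL9, SPDEF, ISG20, CA9, LTBP3, CTGF and SS18) and ended none, while the 6 libraries without the block gained 1 (CTGF) and ended 1 (SNORA22). The block on all 11 libraries gained 1 (CA9) and ended 5 (EPCAM, KRT81, CXCL2, PGAM1 and NEDD4L). Leaving out a siNS or siMBNL1 library gave 449 to 630 calls in all. The 2781 calls for the difference of differences ranged from 2109 with a minimum of 5 RPKM to 2929 with no filter. RPKM hides the counts behind low genes, and 3 libraries a group limit all tests; the cause of these shifts was not tested.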
